A study of Mus musculus with 48 samples.

Results

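Blood of sham-operated mice exposed to chronic ultra-mild stress (CUMS mice, replicates 3 to 6) was compared with blood of ovariectomized, non-stressed mice (OVX mice, replicates 1 to 4). These 8 of the 48 arrays of the series were chosen by their labels and by the slide they share, 4 in each group, and no measured value entered the choice. In the series, RNA was measured in whole blood and in the medial prefrontal cortex (mPFC), a region of the front of the brain, in 6 mice of each of 4 groups, which also include sham-operated mice without stress (control mice) and ovariectomized mice exposed to stress (OVX+CUMS mice). All were female C57BL/6J mice aged 17 weeks. Every one of the 8 mice had surgery, a sham operation in the CUMS mice and removal of both ovaries in the OVX mice. Stress began 2 weeks after surgery and lasted 6 weeks, and blood was drawn 1 day after it ended. The schedule mixed cage tilt, small, soiled or switched cages, odor, restricted access to food, nights with the lights on and a reversed light/dark cycle at the weekend. The pair of conditions differed in surgery and in stress together, so a higher level in CUMS mice is by construction a lower level in OVX mice, and the share of each factor cannot be told apart in these 8 arrays. Separate animals were sampled, and each array is 1 mouse.

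RNA of a blood pellet is a mixture. Reticulocytes, the young red cells that still carry RNA, bring most of the hemoglobin and heme synthesis transcripts, platelets bring transcripts inherited from megakaryocytes, and white cells bring those of the immune system. Stress hormones move lymphocytes between blood, marrow and other tissues, and ovarian hormones act on the marrow and on the formation of B cells. In bulk RNA, fewer cells of a type and less RNA per cell cannot be told apart.

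The signal differed between the groups before normalization. The 75th percentile of the background-subtracted signal was 101, 105, 79.4 and 75.2 on the CUMS arrays and 132, 146, 110 and 121 on the OVX arrays, and was subtracted from each array on the log2 scale. All values below are on that scale, as log2 signal minus the 75th percentile, and differences are CUMS minus OVX. Between 28967 and 29383 probes were well above background on the CUMS arrays and between 30465 and 30976 on the OVX arrays. The extraction software marked all 8 arrays for evaluation. The 4 CUMS arrays lay in row 1 of the slide and the 4 OVX arrays in row 2, so row and group cannot be told apart there. On the other two slides, where arrays of 1 condition lay in both rows, row 1 minus row 2 gave 0 of 21675 probes past an adjusted p of 0.05 in limma within control mice (284 at an unadjusted p under 0.05) and 0 within OVX+CUMS mice (1044 unadjusted).

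Of 24901 probes well above background on all 8 arrays, 11997 differed at an adjusted p under 0.05 in limma, which is 48.2%. Of these, 5566 (22.4%) were higher in CUMS mice and 6431 (25.8%) were lower. When arrays were scaled by their spike-in RNAs in place of the 75th percentile, the median difference of all tested probes moved from 0.00 to -0.22, and 1264 probes were higher and 6501 lower, so that 16.3% of the differing probes were higher in CUMS mice, compared with 46.4% in the 75th percentile scale. The values of the 4 CUMS and 4 OVX mice did not overlap for 9853 probes, 39.6% of those tested, and wherever they did not, the exact two-sided permutation p was 0.0286, the smallest that 4 against 4 allows. Most differences were small. A fold of 2 or more was reached by 913 of the differing probes, of which 601 were higher in CUMS mice and 312 were lower. Over the 17745 genes tested, each by its brightest probe, 23.2% were higher and 26.6% lower, with a median difference of 0.01. The gene lists below are read against these shares.

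B cell genes were lower in CUMS mice. Of 14 tested, 12 fell in CUMS mice relative to OVX mice and 0 rose, with a median difference of -0.88. Cd79a, a signalling chain of the B cell receptor, measured 4.35, 4.89, 4.61 and 4.47 in the CUMS mice and 5.30, 5.46, 5.33 and 5.48 in the OVX mice (difference -0.81 ± 0.14 SE, adjusted p = 0.00818). Its partner chain Cd79b measured 6.32, 6.88, 6.65 and 6.61 against 7.45, 7.55, 7.48 and 7.54 (-0.89, adjusted p = 0.0081). The groups did not overlap for either gene, and CUMS replicate 4 was the highest of its group for both. The transcription factor Ebf1, which commits precursors to the B lineage, fell most in the list, with 0.80, 1.28, 0.59 and 0.65 in the CUMS mice and 1.97, 2.22, 1.74 and 1.95 in the OVX mice (-1.14, adjusted p = 0.0081). Blk, a Src family kinase of B cells, differed by -1.13 (adjusted p = 0.00859), and Cd22, an inhibitory receptor of B cells, by -0.96 (adjusted p = 0.0081). The 2 members that did not pass were Pax5, the factor that holds B cell identity, and Cr2, the complement receptor that marks mature B cells. Pax5 differed by -0.01 (adjusted p = 0.933) with overlapping groups, and Cr2 by -0.30 (adjusted p = 0.0645); both are named after their values were seen.

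Genes of MHC class II antigen presentation, which B cells, monocytes and dendritic cells share, moved the same way. All 9 tested fell, with a median of -0.84 and no overlap between groups in any. H2-Aa measured 4.55, 5.00, 4.51 and 4.44 in the CUMS mice and 5.65, 5.51, 5.46 and 5.44 in the OVX mice (-0.89, adjusted p = 0.0081). H2-DMb2, part of the complex that loads peptides, showed the widest gap, -1.03 (adjusted p = 0.0081), and H2-Ob, a brake on that loading, differed by -0.94 (adjusted p = 0.00812). H2-Eb1 fell by 0.78 and H2-Ab1 by 0.65 on the log2 scale (adjusted p = 0.00843 and 0.013). The OVX values of these genes lay close together, with an SD of 0.02 for H2-Ab1 compared with 0.29 in CUMS mice. Of 5 plasma cell genes tested, 3 fell, namely Mzb1, which helps immunoglobulin assembly, by 0.73, Irf4 by 0.67 and Prdm1, the regulator of antibody-secreting cells, by 0.79. Jchain, which joins the units of secreted antibodies, measured between 0.12 and 1.51 in CUMS mice and between 0.17 and 1.53 in OVX mice (adjusted p = 0.992). The Prdm1 call was lost with row as a term and under normexp background correction, and its difference reached -0.06 among the alternatives. Calls of every B cell and MHC class II gene named here passed with row as a term and without any single array, except those of Pax5 and Cr2, which had none. Row 1 minus row 2 within control mice had a median of -0.15 for the B cell list and -0.14 for the MHC class II list, and within OVX+CUMS mice 0.46 and 0.32.

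**Figure D1:**
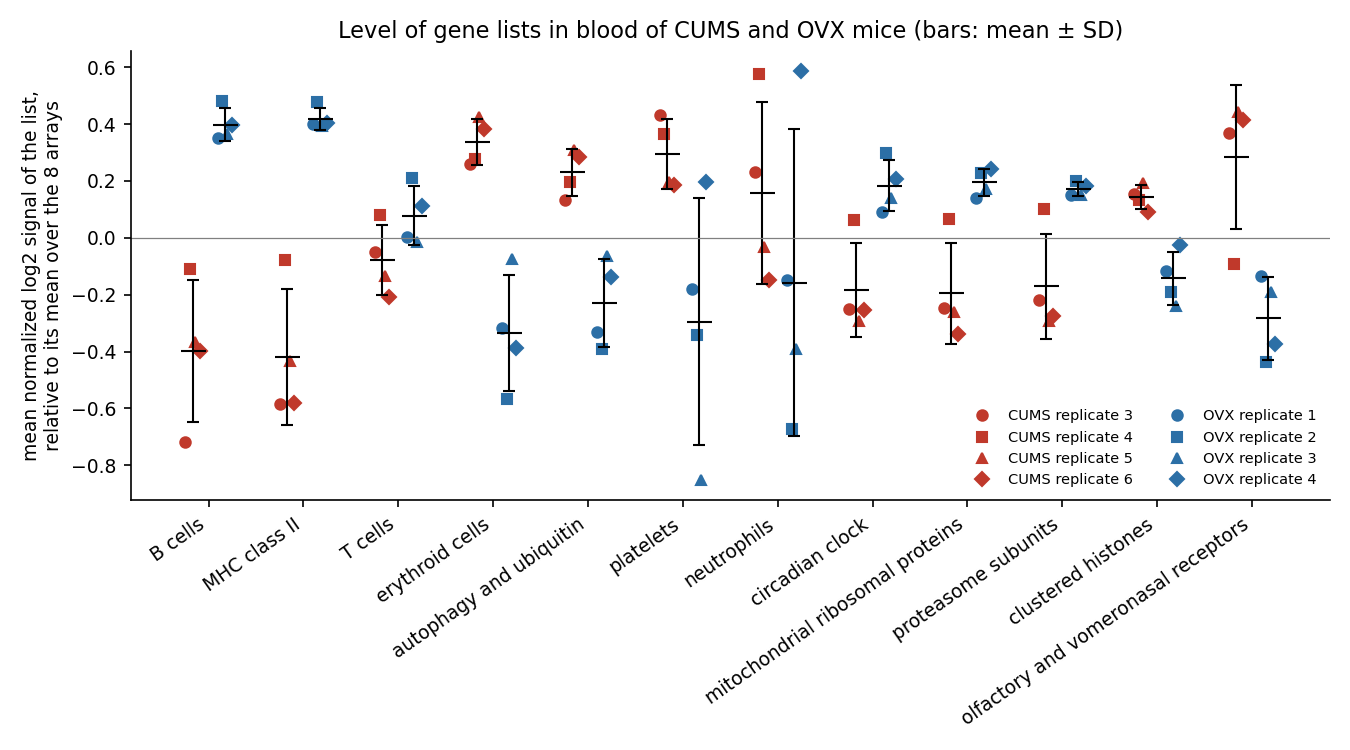
Mean normalized log2 signal of the tested genes of 12 lists on each of the 8 arrays, as the distance from the mean over all 8 arrays, with red marks for CUMS and blue marks for OVX mice and bars for mean ± SD (n = 4). The B cell and MHC class II lists are lower on all 4 CUMS arrays and the erythroid list is higher, without overlap, whereas the T cell, platelet and neutrophil lists overlap.

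Erythroid genes were higher in CUMS mice. Of 18 tested, 15 rose and 0 fell, with a median of 0.69. Alas2, the first enzyme of heme synthesis in red cell precursors, measured 12.13, 11.94, 12.27 and 12.26 in the CUMS mice and 11.51, 11.26, 11.67 and 11.55 in the OVX mice (0.65 ± 0.14 SE, adjusted p = 0.0101). Hba-a1, an alpha globin gene, rose by 0.54 (adjusted p = 0.0135), with 12.43 to 12.75 in CUMS and 11.88 to 12.20 in OVX mice. Slc4a1, the anion exchanger of the red cell membrane, rose by 0.85 (adjusted p = 0.0161). Ahsp, the chaperone of alpha globin, rose by 0.84 (adjusted p = 0.0212). Groups overlapped for Slc4a1 and Ahsp. The beta globin gene Hbb-b1 was matched by no probe, and the erythroid regulator Klf1 was well above background on 3 CUMS and 2 OVX arrays and was not tested. Of 8 heme synthesis genes, 2 rose and 0 fell (median 0.49), a share of risers near the 23.2% of all genes. The 2 were Alas2, given above, and Fech, which inserts iron into heme. Fech measured 11.01, 11.14, 11.56 and 11.51 against 10.46, 10.47, 10.89 and 10.74 (0.66, adjusted p = 0.0155).

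The genes with which maturing red cells clear their organelles and proteins went with them. Of 11 autophagy and ubiquitin genes tested, 8 rose and 1 fell, with a median of 0.62. Bnip3l, the mitophagy receptor that removes mitochondria from reticulocytes, measured 10.56, 10.37, 10.64 and 10.57 in the CUMS mice and 9.80, 9.60, 10.02 and 9.88 in the OVX mice (0.71, adjusted p = 0.00859). Ube2o, a ubiquitin ligase that remodels the reticulocyte proteome, rose by 0.77 (adjusted p = 0.0136). Ube2l6 and Fbxo9, further members of the system, rose by 0.73 and 0.78. Bnip3l and Ube2o stand in the erythroid list as well. The erythroid median kept its sign in all 25 settings tried and lay between 0.42 and 0.80. The calls of Hba-a1, Alas2, Slc4a1, Ahsp, Fech, Bnip3l and Ube2o were nonetheless lost with row as a term and also under spike-in scaling. Those of Hba-a1, Alas2, Fech, Bnip3l and Ube2o were lost under quantile normalization as well. Row 1 minus row 2 had an erythroid median of 0.37 within control mice and of -0.20 within OVX+CUMS mice.

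Platelet genes were also higher, with more scatter. Of 14 tested, 8 rose and 0 fell (median 0.63). Pf4, the chemokine of platelet granules, measured 9.06, 8.91, 8.88 and 8.83 in the CUMS mice and 8.25, 8.03, 7.95 and 8.74 in the OVX mice (0.68, adjusted p = 0.0163). OVX replicate 4 lay next to the CUMS mice and the other OVX mice lay at 8.25 or lower. Selp, the adhesion molecule P-selectin, rose by 0.82 (adjusted p = 0.0097) and Ppbp by 0.72 (adjusted p = 0.0432), both without overlap. Itga2b, a subunit of the fibrinogen receptor, had means of 5.22 ± 0.17 and 4.77 ± 0.49 (SD, n = 4) and did not pass (adjusted p = 0.119). The Pf4 call was lost without OVX replicate 2, under normexp background correction, quantile normalization and spike-in scaling, and with row as a term. That of Ppbp held in 8 of 24 alternatives. Among endothelial genes, Kdr (a receptor of vascular endothelial growth factor), Vwf and Esam rose by 0.67, 0.71 and 0.68, and Pecam1 differed by -0.08 (adjusted p = 0.659). Vwf and Esam are also carried by platelets. Of the defining endothelial markers, Cdh5 was well above background on none of the 8 arrays and Tek on 1 of each group at most.

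Neutrophil, monocyte and T cell genes gave few calls. S100a8 and S100a9, the calprotectin subunits of neutrophils, differed by 0.39 and 0.37 with wide scatter (adjusted p = 0.424 and 0.428), and S100a8 ran from 6.18 to 7.42 in CUMS mice and from 5.74 to 7.52 in OVX mice. Of 11 neutrophil genes tested, 1 rose, the antimicrobial peptide gene Camp (0.75, adjusted p = 0.0194), and 1 fell, the receptor gene Csf3r, with 7.35, 7.34, 6.92 and 7.28 against 7.65, 7.66, 7.67 and 7.59 (-0.42, adjusted p = 0.0301). Elane, a protease that immature myeloid cells load into primary granules, measured 4.71, 4.23, 4.65 and 4.53 against 3.55, 3.46, 3.69 and 3.87 and rose by 0.89 (adjusted p = 0.0081), but Mpo was well above background on none of the CUMS arrays and on 1 OVX array at most. Of 10 monocyte genes, Ear2 fell (-0.76, adjusted p = 0.046) and the others did not pass, including Csf1r at -0.09 and Ccr2 at -0.37. In the dendritic cell list of 5, Siglech fell by 0.48 (adjusted p = 0.0157) and Zbtb46 rose by 0.88 (adjusted p = 0.0165).

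Of 15 T cell genes tested, 12 lay below 0, and 1 rose and 1 fell past the threshold, each below the share of all genes. The T cell receptor chain Cd3e differed by 0.04 (adjusted p = 0.783), whereas the coreceptor Cd4 rose, with 4.62, 4.68, 4.72 and 4.46 against 4.03, 4.05, 3.95 and 4.14 (0.58, adjusted p = 0.00941), and Tcf7, a factor of naive T cells, fell by 0.55 (adjusted p = 0.0351). The remaining 12 of the 15 T cell genes tested did not pass, and the median was -0.24. Of 11 NK cell genes, 3 fell, namely Klra8 by 0.69, Klre1 by 0.80 and Il2rb by 0.48, and Ncr1 differed by -0.39 (adjusted p = 0.114). The share of NK cell genes that fell was near the 26.6% of all genes. In the eosinophil and basophil list, Ccr3 fell by 0.67 (adjusted p = 0.0451), and Prg2 and Epx were well above background on no array. The calls of Camp, Csf3r, Ear2, Tcf7, Klra8, Klre1, Il2rb and Ccr3 were each lost without OVX replicate 2 and without CUMS replicate 5.

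Markers of tissues that blood should lack were also examined. Adipoq, Plin1, Lep and Cfd of fat, Pnlip and Amy2a5 of the pancreas, Apoa1 and Ttr of the liver and Col1a1 of connective tissue were well above background on 0 of the 8 arrays. Others were well above background on some arrays and were not tested. Among them were Fabp4 on 3 CUMS and 4 OVX arrays, Col3a1 on 3 and 0, and Cela1 and Lum on 2 and 2. Some low-signal members passed all the same. Of 3 pancreatic and 3 liver genes tested, 2 of each rose, against 23.2% of all genes. Of 2 fat genes and 1 connective tissue gene tested, 0 passed. The pancreatic Ctrb1 had means of 0.23 ± 0.36 and -0.48 ± 0.13 (SD, n = 4) and rose by 0.71 (adjusted p = 0.0155), and the liver gene Alb had means of -1.82 ± 0.22 and -2.60 ± 0.50 and rose by 0.78 (adjusted p = 0.0258). The Ctrb1 call held in 17 of 23 alternatives and that of Alb in 14 of 21. Both were lost under spike-in scaling, with row as a term and with no detection filter. With the base composition of the probes fitted on each array, 0 of the 3 pancreatic genes rose, and 2 of the 3 liver genes did. The part of these markers in other results was not tested.

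Cold-inducible and clock genes were lower in CUMS mice as well. Cirbp and Rbm3 encode RNA-binding proteins that increase when cells cool. Cirbp measured 1.24, 1.97, 1.19 and 1.16 in the CUMS mice and 2.97, 3.03, 2.54 and 3.18 in the OVX mice, a difference of -1.54 ± 0.21 SE (adjusted p = 0.0081), and was among the 12 genes that fell most. Rbm3 measured 2.80, 3.17, 2.66 and 2.81 against 3.88, 4.02, 3.62 and 3.88 (-0.99, adjusted p = 0.0081). CUMS replicate 4 was the highest CUMS mouse for both, and both groups stayed apart. In the heat shock list, 2 of 8 genes rose (Hsph1 by 0.62 and Hspa4l by 0.67) and 0 fell, and its median of 0.22 was -0.00 under spike-in scaling. Its share of risers was near the 23.2% of all genes.

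The circadian clock is a loop in which Arntl with Clock switches on Per, Cry, Nr1d, Dbp and Tef genes through E-boxes (CACGTG) in their regulatory DNA, and Per and Cry proteins then switch it off. Of 10 clock genes tested, 7 fell and 1 rose, with a median of -0.64. Arntl measured -0.97, -0.30, -0.71 and -0.66 in the CUMS mice and -0.01, 0.29, -0.11 and 0.03 in the OVX mice (-0.71, adjusted p = 0.012). On the repressor side, Cry2 measured -0.07, 0.22, -0.02 and -0.13 against 0.57, 0.81, 0.79 and 0.70 (-0.72, adjusted p = 0.00831), and Per1 fell by 0.57 (adjusted p = 0.0126). Nr1d2, which represses Arntl, fell by 0.72 (adjusted p = 0.00902) and Bhlhe40, another repressor of the loop, by 0.77 (adjusted p = 0.0117). Among the output factors, Tef fell by 0.75 (adjusted p = 0.0124) and Dbp by 0.50 (adjusted p = 0.0299), while their relative Hlf rose, with -1.10, -1.50, -1.19 and -1.34 against -1.76, -1.85, -1.81 and -2.12 (0.60, adjusted p = 0.0123). Activator and repressors thus lay on the same side, and no group overlapped in these 8 genes. Per1, Nr1d2, Dbp and Hlf are named after their values were seen. With row as a term the calls of Nr1d2 and Dbp were lost, and with probe base composition fitted those of Nr1d2, Tef and Hlf, where 5 fell and 0 rose with a median of -0.41. Arntl, Cry2 and Per1 passed in both. The Bhlhe40 call was lost under normexp correction, and its difference reached -0.09 among the alternatives. The study's methods place blood sampling in the morning in their passages on blood and on tissue collection, and from the morning into the afternoon in their account of the animals, and the hour of each mouse is not given in the sources used here.

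**Figure D2:**
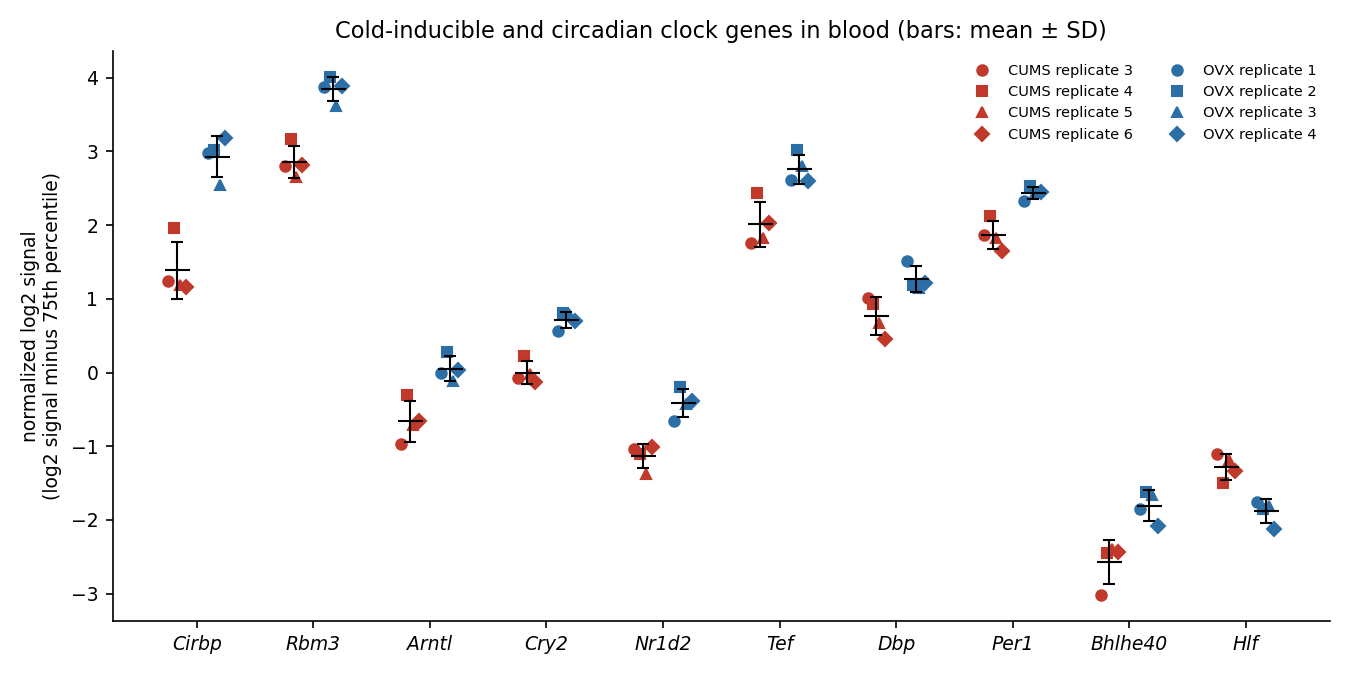
Normalized log2 signal (log2 signal minus the 75th percentile of the array) of 2 cold-inducible and 8 clock genes on each array, red for CUMS and blue for OVX mice, with mean ± SD (n = 4). Cirbp and Rbm3 show the widest gaps, at -1.54 and -0.99, Hlf is the only gene drawn that is higher in CUMS mice, and no gene overlaps.

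The letters of the E-box were searched on both strands of RefSeq promoter windows (GRCm38.p6), which span 250 bases before to 50 after a start site. They stood in 7.15% of 32851 windows and in 4 of the 12 windows of the 9 tested clock genes that have one, and the D-box TTATGTAA, the letters bound by Dbp, Tef and Hlf, in 0.938% of all windows and in 0 of the 12. The 4 matches are shown because they are where the loop's own motif lies near a start site of a tested gene, with the motif in capitals. They belong to Per1 and Tef, which fell, and to Bhlhe41, which measured 0.51 higher and did not pass (adjusted p = 0.0621).
Per1, chr11:69098771-69098800, + strand: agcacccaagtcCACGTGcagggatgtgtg
Tef, chr15:81802534-81802563, + strand: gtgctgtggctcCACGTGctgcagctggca
Tef, chr15:81811264-81811293, + strand: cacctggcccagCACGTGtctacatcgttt
Bhlhe41, chr6:145865556-145865585, - strand: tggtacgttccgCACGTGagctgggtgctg
The fall was thus measured for genes with and without the letters in these windows, and a match is a description, not a measured binding site.

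Genes that glucocorticoids induce did not move together. Of 13 tested, 2 rose and 3 fell, with a median of -0.26, and neither share was larger than that of all genes. Fkbp5, the classic glucocorticoid target, measured 0.86, 0.88, 1.44 and 1.62 in the CUMS mice and 1.03, 1.37, 1.38 and 1.50 in the OVX mice (-0.12, adjusted p = 0.612). Tsc22d3, which encodes the anti-inflammatory mediator GILZ, differed by -0.27 (adjusted p = 0.333) and Zbtb16 by 0.00 (adjusted p = 0.994). Ddit4, an inhibitor of mTORC1, fell by 0.70 (adjusted p = 0.0217), whereas the metallothionein Mt1 rose by 0.78 (adjusted p = 0.0165) and the phosphatase gene Dusp1 by 0.58 (adjusted p = 0.0434). The Dusp1 call held in 8 of 23 alternatives, and of those that left out 1 array only in that without OVX replicate 4. Immediate early genes, which are switched on within minutes of a stimulus, went both ways at low signal. Fos rose by 0.98 (adjusted p = 0.0288), and Egr1 and Nr4a1 fell by 1.10 and 0.76 (adjusted p = 0.00834 and 0.0238). The Egr1 call was lost under normexp correction, and its difference reached -0.14 among the alternatives. The Fos call held in 11 of 21 alternatives and that of Nr4a1 in 17 of 24.

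Interferon-stimulated genes were in part higher. Of 15 tested, 6 rose and 0 fell (median 0.35). Isg15, a ubiquitin-like modifier, measured 7.16, 7.28, 8.16 and 7.33 in the CUMS mice and 6.17, 5.81, 7.62 and 5.90 in the OVX mice, so OVX replicate 3 lay above 3 of the 4 CUMS mice (1.11, adjusted p = 0.04). Irf7, the transcription factor that amplifies the interferon response, rose by 0.80 (adjusted p = 0.0144) and Ifit1 by 0.79 (adjusted p = 0.0125), and OVX replicate 3 was the highest OVX mouse for both. All 3 calls were lost with row as a term. Among Toll-like receptor genes, 3 rose and 2 fell of 12, against 23.2% and 26.6% of all genes. Tlr9 rose by 0.66 while Tlr1 fell by 0.69. Tlr7 rose by 1.27 at its brightest probe (adjusted p = 0.0081), but its other tested probe fell by 0.89 (adjusted p = 0.0268), so no direction can be given for the gene. Of the cytokine and inflammasome list, the anti-inflammatory cytokine Il10 rose by 0.80 (adjusted p = 0.00885) and the protease gene Casp1 fell by 0.68 (adjusted p = 0.0176). In the stress response to amino acid shortage and unfolded proteins, Asns, which makes asparagine, rose by 1.26 (adjusted p = 0.0199), with OVX values from -0.06 to 1.79 and CUMS values from 1.68 to 2.53.

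Mitochondrial ribosomal protein and proteasome genes were mostly lower in CUMS mice by small amounts, whereas the share of cytosolic ribosomal protein genes that fell was no larger than that of all genes. Of 76 mitochondrial ribosomal protein genes, 47 fell and 2 rose (median -0.46). Mrps16 measured 2.29, 2.70, 2.28 and 2.44 in the CUMS mice and 3.14, 3.34, 3.23 and 3.18 in the OVX mice (-0.79, adjusted p = 0.0081), and Mrps11 fell by 0.80 (adjusted p = 0.035). Mrpl2 was the exception among the named members, with 6.12 to 6.60 against 5.36 to 5.81 (0.79, adjusted p = 0.00885). Mrps2 fell at its brightest probe (-0.73) and rose at another (0.58). Of 37 proteasome genes, 19 fell and 1 rose (median -0.40). Psma6, a subunit of the catalytic core, measured 0.60, 1.31, 0.65 and 0.69 against 1.52, 1.66, 1.48 and 1.58 (-0.75, adjusted p = 0.0117), and the ATPase subunit Psmc6 fell by 0.70 (adjusted p = 0.0104). The single riser was the ubiquitin receptor Psmd4, with 6.95 to 7.16 against 6.24 to 6.84 (0.56, adjusted p = 0.0186). Of 81 cytosolic ribosomal protein genes, 19 fell and 5 rose (median -0.24), and the named members point both ways, with Rpl7l1 at -0.77 and Rpl41 at 0.62. Rps15 rose at its brightest probe (0.58) and fell at another (-0.39). Of 77 oxidative phosphorylation genes, 19 fell and 11 rose (median -0.11), neither share larger than that of all genes. Atp5j2, a subunit of ATP synthase, rose by 1.08 (adjusted p = 0.0081). With probe base composition fitted, the medians were -0.37, -0.28, -0.07 and -0.01 for these 4 lists.

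Of 17 cell division genes tested, 5 rose and 6 fell, not far from the 23.2% and 26.6% of all genes. The cyclins Ccna2 and Ccnb2 rose by 1.12 and 0.83 (adjusted p = 0.00818 and 0.0197) and the proliferation marker Mki67 by 0.40 (adjusted p = 0.0285), whereas Mcm3, part of the replicative helicase, measured 0.99, 1.35, 1.15 and 0.63 against 1.64, 1.87, 1.73 and 1.95 and fell by 0.77 (adjusted p = 0.0106). Of 41 genes tested in the clustered histone list, whose members were picked by symbol, 20 rose and 4 fell (median 0.47). H2ac8 measured -1.36, -1.18, -1.26 and -1.22 against -2.54, -2.27, -1.71 and -2.27 (0.94, adjusted p = 0.00843), and H2bc22 rose by 0.83. The oocyte linker histone gene H1f8, which the symbols took in, fell by 0.91. Messages of replication-dependent histones lack a poly(A) tail, and labelling was primed with poly dT. Which members of the list are of that kind was not examined. The calls of H2ac8 and H2bc22 were lost with row as a term. Those of Ccnb2 and Mki67 were lost under spike-in scaling and with probe base composition fitted.

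Estrogen receptors were listed because of the surgery. Esr2, estrogen receptor beta, measured 2.66, 2.59, 1.87 and 2.50 in the CUMS mice and 3.32, 3.32, 3.32 and 2.98 in the OVX mice, and fell by 0.83 (adjusted p = 0.0114). The orphan receptor gene Esrrb rose by 0.61 (adjusted p = 0.0157). The other 3 of 5 tested members of the family did not pass. The study measured a set of genes in patients, chosen by its authors from data that include these arrays. In mice, its authors required a difference from control in OVX+CUMS mice, but none in CUMS or in OVX mice. The groups compared here are thus those in which no difference from control was called, so the count below does not test that choice. Of the 14 tested in these mice, 3 passed. Slc36a1, a lysosomal amino acid transporter, rose, with 2.91, 2.54, 3.00 and 2.99 against 2.39, 2.15, 2.42 and 2.40 (0.52, adjusted p = 0.0196). Banp fell by 0.59 (adjusted p = 0.0141) and Sigirr, a brake on interleukin-1 and Toll-like receptor signalling, by 0.58 (adjusted p = 0.0167). Cidec, a lipid droplet protein, measured -1.48, -2.86, -1.13 and -0.44 against -1.85, -0.91, -2.06 and -1.78 (0.17, adjusted p = 0.754). Rnase1 differed by 0.72 (adjusted p = 0.218) and Styxl1 by 0.46 (adjusted p = 0.237), both with overlap. The remaining 8, Rab11fip4, Arfrp1, Bcl11b, Fyco1, Nipal3, Rpl23a, Rps2 and Slc35f2, lay between -0.24 (Bcl11b) and 0.30 (Nipal3) and did not pass.

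The 12 genes with the strongest rise and the 12 with the strongest fall, taken from those with a mean processed signal of at least 100 and no overlap, did not belong to the lists above, apart from Cirbp. Mc3r, a melanocortin receptor of the brain, rose most, with 3.22, 2.60, 2.64 and 2.71 against 1.21, 1.51, 0.08 and 0.40 (1.99 ± 0.30 SE, adjusted p = 0.0081). It was followed by Rtp2, which carries odorant receptors to the cell surface (1.60), the odorant receptor gene Olfr1466 (1.55), the monooxygenase gene Fmo5 (1.54), Ltbp4 (1.47), Pabpc4l (1.47), Gm9886 (1.44), Tmprss11b (1.43), the fatty acid desaturase gene Fads1 (1.42), Zbtb42 (1.42), Cyp4b1 (1.42) and Erich5 (1.41). Their adjusted p lay between 0.0081 and 0.0148. Dcaf12l2 fell most, with 2.90, 2.53, 1.63 and 2.70 against 5.59, 4.89, 5.26 and 4.56 (-2.63 ± 0.30 SE, adjusted p = 0.0081). Among the others were St6galnac1 (-1.58), Lzts3 (-1.57), Shc4 (-1.57), Cabp5 (-1.57), Cirbp (-1.54), the MHC class Ib gene H2-Q4 (-1.53), Slfn9 (-1.52), 1700066B19Rik (-1.51), Gm6252 (-1.51) and Ddx25 (-1.47), with adjusted p up to 0.0227. St6galnac1 and Shc4 each had another tested probe that rose, by 0.46 and 0.81.

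St6galnac1, Lzts3, Shc4, Cabp5 and Ddx25 fell almost in step, and Dcaf12l2 fell further. Lzts3 measured 3.64, 3.53, 2.89 and 4.09 against 5.55, 4.96, 5.34 and 4.59, and Cabp5, an unrelated calcium-binding protein gene of the retina, 4.16, 4.07, 3.32 and 4.39 against 5.99, 5.45, 5.86 and 4.89. In each, CUMS replicate 5 was the lowest array. In the mPFC of the same mice, Dcaf12l2 measured -1.01 (adjusted p = 0.122 in limma), and the others lay between -0.06 (Ddx25) and 0.02 (Lzts3). All 6 probes hold a simple repeat of A and G. Of the 12 risers, Olfr1466, Fmo5, Gm9886, Tmprss11b and Erich5 hold a repeat of C and T. A stretch of 30 bases is shown of the 60-base probes of some of them, with the longest run of purines (A and G, for genes that fell) or pyrimidines (C and T, for genes that rose) within it in capitals, and of Cirbp and Mc3r for comparison. The coordinates are those of the whole probe on mm9.
Dcaf12l2, chrX:41719459-41719518, - strand: GAGAGAGAGAGAGAGAGAGAGAGAtttcta
St6galnac1, chr11:116626566-116626625, - strand: GAGAGAGAGAGAGGGAGAGAGAGAGAGAGA
Lzts3, chr2:130459323-130459382, - strand: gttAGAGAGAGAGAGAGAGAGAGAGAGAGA
Cabp5, chr7:13993821-13993880, + strand: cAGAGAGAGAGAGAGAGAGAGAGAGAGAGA
Ddx25, chr9:35349535-35349594, - strand: tattGAAGAGAGAGAGAGAAGAGAGGcctt
Cirbp, chr10:79634274-79634333, + strand: tccttttttaccGAAGAcatgcatactcca
Fmo5, chr3:97455814-97455873, + strand: aggaatcaatcacaaTCTCTCTCTCTCTCT
Tmprss11b, chr5:87087250-87087309, - strand: tgatgagttttagCTCTCTCTCTCTCTTTT
Erich5, chr15:34403577-34403636, + strand: tgaTCTCTCTCTCTTTCTTTCTCTTTCatg
Mc3r, chr2:172076555-172076614, + strand: TTTCTCTCTTgctttaatcgtgatgcttgg
These probes share sequence, so their values are not independent measurements of the named genes, and whether they hybridized to the named transcripts was not tested.

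The pattern held across the array. Of 239 tested probes with GAGAGAGA, GAGGAGGAG or GAAGAAGAA, 164 fell and 14 rose (median -0.79), and of 175 with CTCTCTCT, CTCCTCCTC or TTCTTCTTC, 118 rose and 5 fell (median 0.72). The letters were searched in the probe as printed on the array, on its own strand, and a probe could hold more than one of them. Purine repeats make up 0.96% of all tested probes (239 of 24901) and 75 of the 312 that fell at least 2-fold, and pyrimidine repeats 0.703% of all (175) and 46 of the 601 that rose at least 2-fold. The mean level of the purine-repeat probes was 1.92, 1.98, 1.51 and 2.14 on the CUMS arrays and 2.70, 2.47, 2.67 and 2.39 on the OVX arrays. In the mPFC of the same mice the medians were 0.03 and -0.01. With base composition fitted on each array, they were -0.26 and 0.45, and with row as a term the calls of Dcaf12l2, St6galnac1, Lzts3, Shc4, Cabp5 and Ddx25 were lost. So were those of H2-Q4, Slfn9, 1700066B19Rik and Gm6252, whose probes hold no such repeat, whereas Cirbp kept its call. The H2-Q4 call was also lost with no detection filter, with unmoderated spread and without OVX replicate 3. Row 1 minus row 2 had a purine-repeat median of 0.06 within control mice and 0.03 within OVX+CUMS mice.

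**Figure D3:**
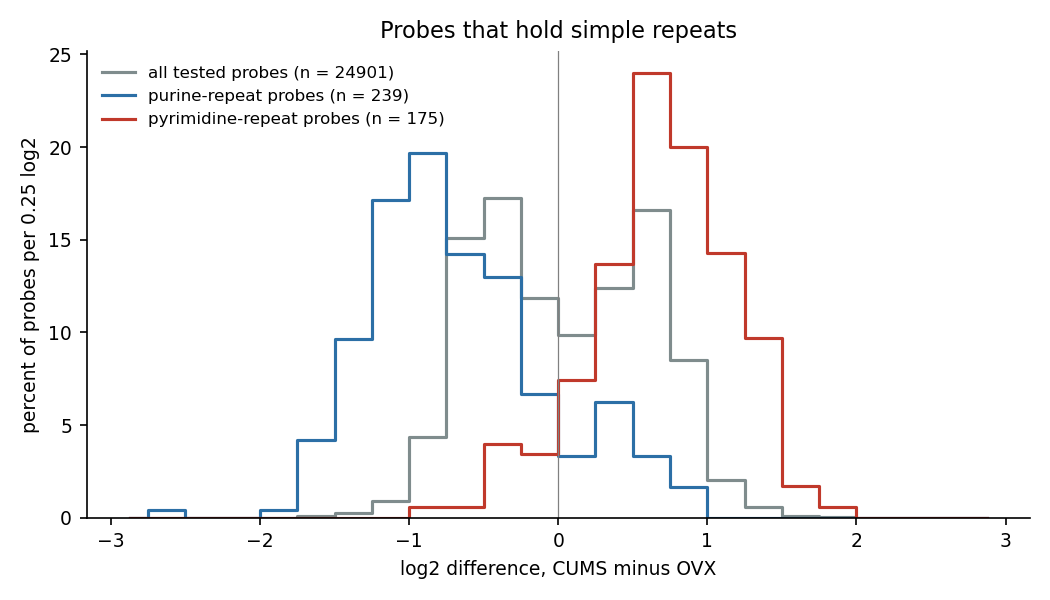
Distribution of the log2 difference, CUMS minus OVX, in steps of 0.25, as the percent of all 24901 tested probes (grey), of the 239 probes with a purine repeat (blue) and of the 175 with a pyrimidine repeat (red). The purine-repeat probes sit around -0.79 and the pyrimidine-repeat probes around 0.72, and the distribution of all probes has a peak on each side of 0.

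Base composition in general went with the difference. The median over probes was -0.41 below 30% GC and 0.60 at 60% GC or more, and it was 0.65 below 30% purine and -1.12 at 80% purine or more. Over the 24901 probes, the slope of log2 signal on GC content, relative to the mean of the 8 arrays, was 0.09, -0.03, 0.17 and 0.19 per 10% GC on the CUMS arrays and -0.09, -0.16, -0.07 and -0.10 on the OVX arrays, so CUMS replicate 4 lay between its group and the OVX mice. On the mPFC arrays of the same mice the slopes lay between -0.02 and 0.02. When a quadratic fit on both the GC and the purine content of the probes was removed from each array, 8831 probes differed, 16.5% higher and 18.9% lower. The erythroid, MHC class II and B cell medians then were 0.72, -0.86 and -0.76, close to the 0.69, -0.84 and -0.88 given above. Of 1340 odorant and vomeronasal receptor genes on the array, 233 were tested, and 106 of these rose and 2 fell. Their median was 0.61, and 0.44 with composition fitted, at a median processed signal of 55.5. These receptors serve smell in the nose, and the part of probe composition in their signal was not tested further.

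**Figure D4:**
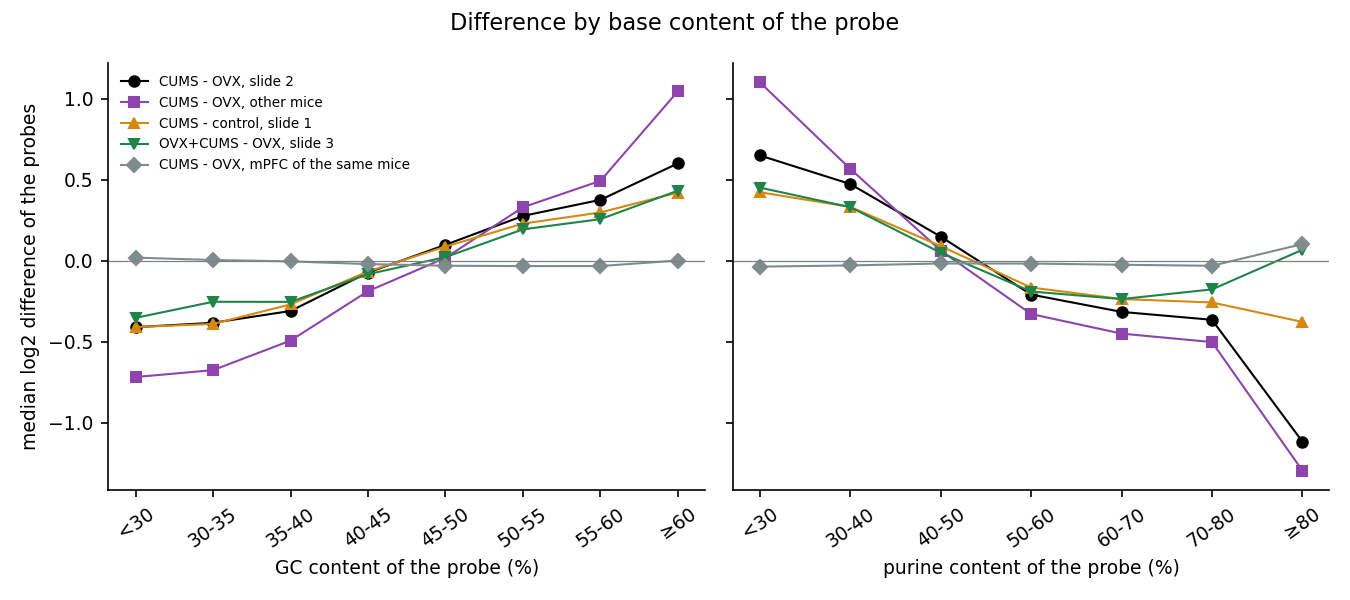
Median log2 difference of tested probes in bins of GC content (left) and of purine content (right), for the comparison on slide 2 (black), other mice of the same groups (purple), the stress comparisons on slides 1 and 3 (orange, green) and the mPFC of the same 8 mice (grey). The blood comparisons rise from the lowest to the highest GC bin and the first 4 purine bins fall in all of them, whereas mPFC stays near 0 up to 80% purine.

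Other mice of the series allow the same question to be asked of arrays not used above, but their signal was uneven. The 75th percentile was 103 and 54.9 for CUMS replicates 1 and 2, and 192 and 164 for OVX replicates 5 and 6. In the same order, 29253, 23578, 34838 and 31608 probes were well above background. CUMS replicate 2 was the lowest and OVX replicate 5 the highest of all blood arrays in both measures. The part of this unevenness in the counts and signs below was not tested. CUMS replicates 1 and 2 on slide 1 minus OVX replicates 5 and 6 on slide 3 gave 11950 of 21872 probes past the threshold (54.6%), with 27.0% above 0 and 27.6% below 0, although slide and condition cannot be told apart there. Of the probes that differed on slide 2 and were tested here, 96.9% had the same sign, against 87.4% of all probes tested in both. The difference between both comparisons passed for 0 probes in limma (2864 at an unadjusted p under 0.05, and 0 under normexp correction and under quantile normalization). Within slide 1, CUMS replicates 1 and 2 minus the 6 control mice passed for 3 of 21675 probes (0.0138%, 7630 unadjusted), and within slide 3 the 6 OVX+CUMS mice minus OVX replicates 5 and 6 for 1 (0.00461%, 6922 unadjusted). Signs were the same as on slide 2 for 96.9% and 96.0% of the probes that differed there. Over all probes tested in both, differing or not, they were the same for 89.1% and 87.8%. These 3 comparisons share arrays with each other, but none with the 8.

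The lists did not all behave alike in these mice. B cell genes had medians of -1.03 in the other mice, -0.47 on slide 1 and -0.57 on slide 3, and MHC class II genes -1.06, -0.54 and -0.55. Cirbp measured -1.75, -1.28 and -0.73, and Arntl -0.89, -0.49 and -0.62. Erythroid medians were 1.40, 0.62 and 0.69. The platelet list, at 0.63 on slide 2, had medians of 0.12, 0.09 and -0.12, and Ppbp measured -0.11, -0.09 and -0.28. Neutrophil genes, with a median of 0.39 on slide 2, had -0.58, -0.26 and -0.20, and S100a9 measured -1.21, -0.51 and -0.36. The clustered histone list, at 0.47, had 0.16, 0.14 and -0.02. Dcaf12l2, which fell most on slide 2, measured 0.05, 0.78 and 0.41, and Mc3r, which rose most, 1.43, -0.44 and 0.43. The purine-repeat probes had medians of -0.95, -0.36 and -0.02 and the pyrimidine-repeat probes 1.18, 0.49 and 0.46.

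**Figure D5:**
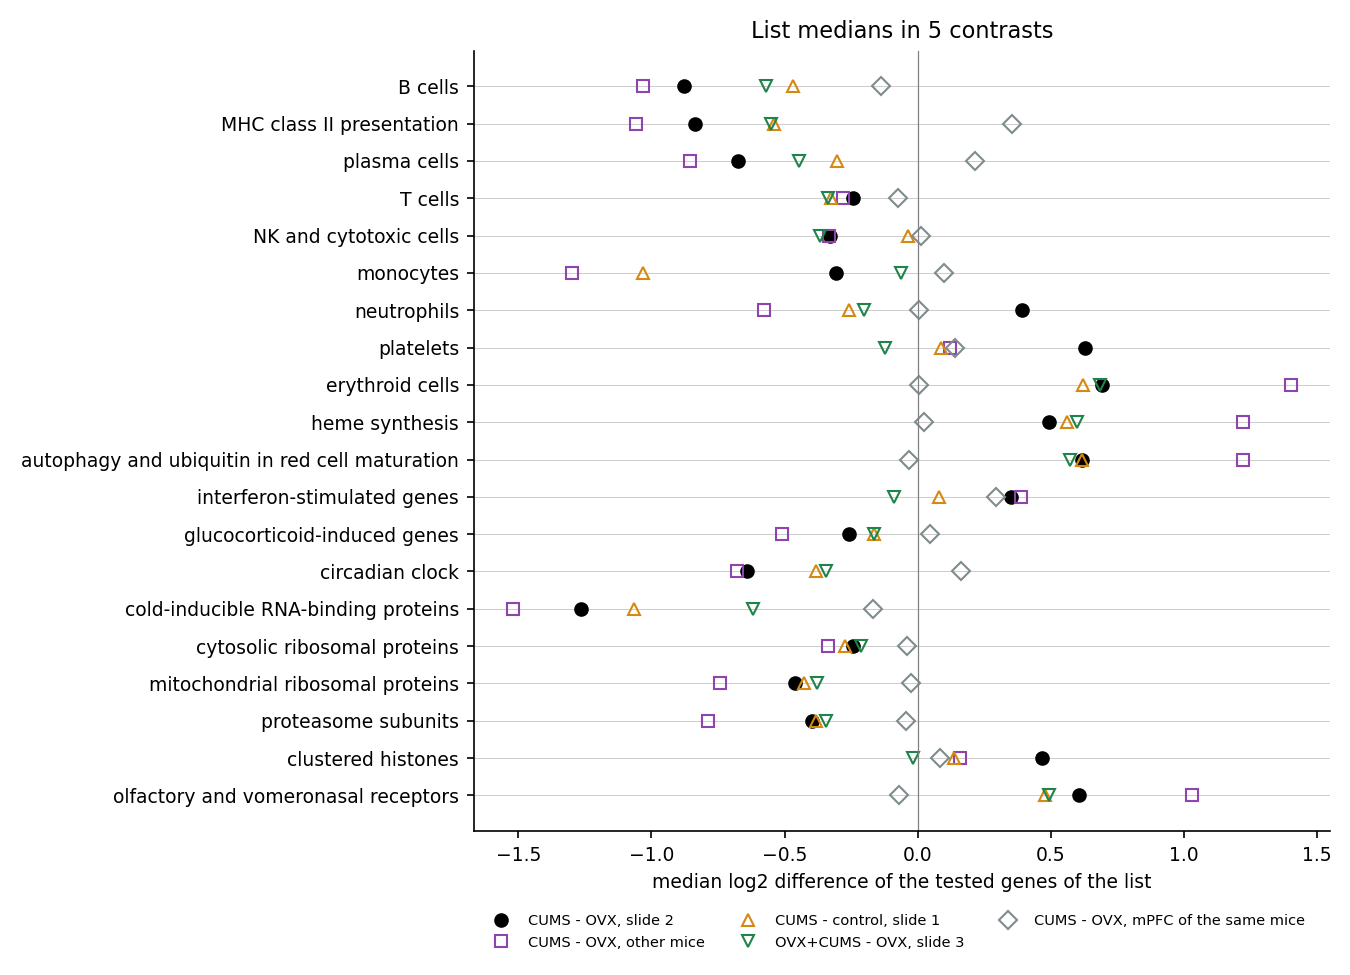
Median log2 difference of the tested genes of 20 lists in the comparison on slide 2 (filled black), in other mice of the same groups (purple squares), in the stress comparisons on slides 1 and 3 (orange and green triangles) and in the mPFC of the same 8 mice (grey diamonds). The B cell, erythroid, clock and mitochondrial ribosome lists stay on 1 side of 0 in all 4 blood comparisons, whereas the platelet and neutrophil lists do not.

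In the mPFC of the same 8 mice, CUMS minus OVX passed for 0 of 30343 probes in limma (4786 at an unadjusted p under 0.05), with 168 under normexp correction and 10 under quantile normalization. The change itself differed between blood and mPFC, tested within each mouse, for 8766 of 20967 probes (41.8%), with 3797 above and 4969 below 0. Without OVX replicate 2 this count was 3420, without OVX replicate 4 it was 5446, and without CUMS replicate 5 or 6 it was 4110 or 4646. H2-Ab1 and H2-Eb1 measured 0.98 and 0.75 in mPFC against -0.65 and -0.78 in blood, and differed between the tissues (adjusted p = 0.0239 and 0.0153). Egr1, Nr4a1 and Fos, which nerve cells switch on with activity, measured 0.45, 0.71 and 0.58 in mPFC, where none passed. Egr1 and Nr4a1 differed from blood by -1.55 and -1.47 (adjusted p = 0.00773 and 0.00971). The call of Egr1 in blood alone was lost under normexp correction. Cirbp measured -0.22 in mPFC and differed by -1.32 (adjusted p = 0.00773), and the clock genes Arntl, Cry2, Per1 and Dbp measured 0.18, 0.10, 0.25 and 0.20 there and differed by -0.89, -0.82, -0.81 and -0.70. The odorant receptor gene Olfr1466 measured -0.10 in mPFC and 1.55 in blood.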

How the data were processed

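Blood arrays of 4 CUMS and 4 OVX mice were analysed, with the other 16 blood arrays and the 8 mPFC arrays of the same mice for comparison; mPFC arrays of other mice were not used here. Total RNA of the blood pellet was primed with poly dT, amplified with Cy3-labelled CTP and hybridized to 60-base probes. The intensity of each spot was deposited as the authors' Feature Extraction 10.7.3.1 processed signal, background-subtracted and with spatial trends removed, in arbitrary units. The log2 values in the authors' table are that intensity shifted by each array's 75th percentile, and 100.0% of values of single-spot probes came within 0.001 of those computed here.

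Control spots (3671 of 62976) and outlier spots were left out, spots of a probe averaged, and the 75th percentile over all 55681 probes subtracted. Probes well above background on all 8 arrays entered lmFit and eBayes of limma 3.58.1 (R 4.3.3, prior degrees of freedom 3.86, data.table, version 1.17.8), two-sided, with Benjamini-Hochberg adjustment over all of them, and single genes also with an exact permutation test. Tables and figures were made in Python 3.11.15. The model was tested on simulated data. Precision is limited by signal over background and by 4 mice per group. The labels do not say that mice of different groups with equal numbers belong together. Deviations from the group means correlated at -0.29 for number 3 and 0.03 for number 4, so equal numbers of CUMS and OVX mice were not taken as pairs.

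Symbols came from RefSeq (GRCm38.p6) where a transcript matched and otherwise from the array; 2706 probes had none. Members and the 37 lists were chosen with earlier results of these data known. Named genes are the 12 largest changes in each direction (no overlap, mean signal at least 100, brightest probe of the gene), the first 3 genes and the 3 largest called changes of each list, and the genes measured in patients; 137 are named of these and of 7 chosen after their values were seen (Pax5, Cr2, Per1, Nr1d2, Dbp, Hlf, Psmd4), and some that the rule picks are not reported here. List members that were not well above background on every array were not tested. Alternatives were normexp correction (offset 50), spike-in scaling, the 75th percentile over tested probes, quantile normalization, other signal filters, the authors' table, unmoderated spread or a trend, all 24 blood arrays in 1 fit, the replicate number as a block, and leaving out each array. Slide row as a term, base composition fitted per array and repeat probes left out were added after the data were seen.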

Additional observations from a re-analysis of the deposited data

Results flagged for a closer look

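In 26 of 348 groups of 4 arrays examined (7.47%), 1 array lay far from the other 3 relative to the range of its group; chance does so in about 1 in 20. Among the CUMS mice, replicate 4 was high for Cirbp (1.97), Psma6 (1.31) and the mean levels of the clock list (-0.08), the cold-inducible list (2.57) and the immediate early list (0.60), and low for the odorant and vomeronasal receptor list (-0.65). CUMS replicate 5 was low for Csf3r (6.92) and Siglech (8.05) and high for Isg15 (8.16), replicate 3 was high for Ppbp (8.38) and low for Bhlhe40 (-3.02), and replicate 6 was low for the interferon-stimulated list (1.78). Among the OVX mice, replicate 2 was low for Camp (0.97), Alb (-3.35) and Slc36a1 (2.15) and high for the MHC class II list (4.86). OVX replicate 3 was high for Ear2 (3.39), Ifit1 (0.56) and Irf7 (3.82) and low for Pecam1 (1.06) and the eosinophil and basophil list (-1.09). OVX replicate 4 was low for Il2rb (1.00), Esr2 (2.98) and H1f8 (-1.57) and high for Dusp1 (0.97) and Mrps11 (0.22).

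The change between CUMS and OVX mice differed between blood and mPFC for 8766 probes in limma, tested on the difference within each mouse. Of the 108 named genes measured in both tissues, 77 differed. The log2 change in blood minus that in mPFC was positive for the genes that rose most in blood, at 2.12 for Mc3r, 1.68 for Rtp2, 1.65 for Olfr1466, 1.51 for Fads1, 1.43 for Fmo5, 1.40 for Erich5, 1.39 for Tmprss11b, 1.35 for Gm9886, 1.32 for Ltbp4 and 1.19 for Cyp4b1. Red cell genes and their clearance system had 0.87 for Slc4a1, 0.61 for Fech, 0.70 for Bnip3l, 0.75 for Ube2o, 0.86 for Ube2l6 and 0.82 for Fbxo9. Immune and endothelial genes on the same side were Tlr7 at 1.25, Elane at 0.86, Zbtb46 at 0.85, Irf7 at 0.66, Tlr9 at 0.63, Cd4 at 0.59 and Kdr at 0.52. Further positive values were 1.24 for Asns, 1.14 for Ccna2, 0.59 for Ccnb2, 1.11 for Atp5j2, 0.95 for Mt1, 0.85 for Mrpl2, 0.64 for Rpl41, 0.65 for Psmd4, 0.65 for Hspa4l, 0.55 for Hsph1, 0.77 for Ctrb1 and 0.57 for Esrrb.

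The difference was negative for the genes that fell most in blood, at -1.63 for Dcaf12l2, -1.59 for St6galnac1, -1.59 for Lzts3, -1.58 for Shc4, -1.54 for Cabp5, -1.40 for Ddx25, -1.39 for H2-Q4, -1.38 for Slfn9, -1.36 for 1700066B19Rik and -1.35 for Gm6252. Genes of B cells, antibody secretion and MHC class II had -1.62 for H2-Ab1, -1.53 for H2-Eb1, -0.94 for H2-Ob, -1.44 for Ebf1, -1.03 for Cd22, -0.58 for Cd79b and -1.04 for Prdm1. Cold-inducible and clock genes had -1.32 for Cirbp, -0.87 for Rbm3, -0.89 for Arntl, -0.82 for Cry2, -0.81 for Per1, -0.75 for Nr1d2, -0.99 for Bhlhe40, -0.90 for Tef and -0.70 for Dbp. Signalling genes had -1.55 for Egr1, -1.47 for Nr4a1, -0.96 for Ddit4, -0.93 for Casp1, -0.85 for Sigirr, -0.81 for Tcf7, -0.46 for Siglech, -0.37 for Csf3r, -0.72 for Esr2 and -0.64 for Banp. The remaining values were -0.81 for H1f8, -0.75 for Rpl7l1, -0.73 for Mrps16, -0.73 for Psmc6, -0.68 for Psma6 and -0.60 for Mcm3.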

How the results depend on the processing

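The count of 11997 differing probes lay between 8831 and 12417 under normexp correction, quantile normalization, the 75th percentile over tested probes, a mean signal of at least 50, detection on all 24 blood arrays, the authors' table, unmoderated spread, a spread trend, all 24 blood arrays in 1 fit and, added after the data were seen, base composition fitted per array (the lowest, 8831) and repeat probes left out. It was 7765 under spike-in scaling, 6701 with no detection filter (55667 probes), 6082 at a mean signal of at least 200 (10164 probes) and 7113 with slide row as a term, which was added after the data were seen; the fewer probes tested account for part of the count at 200, and the other causes were not tested. Leaving out 1 array gave 5610 to 14951, the lowest without OVX replicate 2 and the highest without CUMS replicate 4, with 6628 without CUMS replicate 5 and 7908 without CUMS replicate 6. The difference between blood and mPFC gave 3420 (without OVX replicate 2) to 11670 (without CUMS replicate 4) for 8766, with 4110 without CUMS replicate 5, 4646 without CUMS replicate 6 and 5446 without OVX replicate 4. The slide 1 count of 3 became 0 under normexp correction, the slide 3 count of 1 became 0 under normexp correction and quantile normalization, and the mPFC count of 0 became 168 and 10 under these.

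With the replicate number as a block, 1295 probes differed (913 higher, 382 lower; 6193 at an unadjusted p under 0.05), of which 865 also differed without it. Only numbers 3 and 4 occur in both groups, so that this fit compares 2 mice with 2, and equal numbers do not mark pairs.

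Of the 137 named genes, 112 differed, and 2634 gene and setting pairs were computed for them. In 2230 pairs the direction and the call were the same, in 403 the direction was the same and the call was lost, and in 1 the direction reversed, for Siglech, at 0.03 with base composition fitted (-0.48 otherwise). Calls were lost for 88 of the 112 under the block, 54 with row as a term, 37 with no detection filter, 37 under spike-in scaling, 33 without OVX replicate 2 and 23 without CUMS replicate 5. Weak signal limits the low members, since a probe had to be well above background on all 8 arrays.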

Other observations

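Some probes were measured well above background in 1 group and in no mouse of the other, and were not tested. There were 281 on all 4 OVX arrays and no CUMS array, and 18 on all 4 CUMS arrays and no OVX array. The OVX arrays also had the higher 75th percentiles and the more probes well above background, as given above. A lower bound on the fold was set from the lowest signal well above background on each array, or the dim probe's own where that was higher. It reached 2-fold for 21 of the 281 and 10 of the 18. Pick1, a scaffold protein of synapses, was at least 4.77-fold higher in OVX mice, with means of -3.71 in CUMS and -0.92 in OVX mice, and the ubiquitin-conjugating enzyme gene Ube2d1 at least 4.30-fold higher. In the other direction, Wdr66 was at least 3.15-fold and Scgb2b20 at least 2.69-fold higher in CUMS mice. These genes have the 2 highest bounds in each direction and were chosen after their values were seen.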
